A study of Mus musculus with 6 samples.

Results

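The promoters of the Notch receptors Notch1 and Notch4 and of the Notch ligand Jag2 are described here, 3 of the 235 promoters in a table of chromatin accessibility around transcription start sites (TSSs). They were taken by gene symbol, and all 100 bins of each were used in all 6 libraries. The explants were limbs of CD-1 mice, wild type, collected at 1 day post amputation: 3 libraries are from limbs cultured at an air-liquid interface (ALI) and 3 from limbs in 96-well plates. For each culture 4 limbs were collected, dissociated with trypsin and put through ATAC-seq, in which a transposase cuts open DNA and the density of sequenced fragments measures accessibility. By its title the study concerns how oxygen is sensed when limb regeneration begins, and the culture is the contrast its labels give. All 6 libraries share genotype, tissue, amputation and time, and no uninjured or freshly collected limb is among them. The labels do not tie the 4 limbs, or any animal, to a single library, so every p-value rests on library-to-library spread, which may be technical only. In the main window and segment comparisons of the cultures, that spread is estimated over all promoters and not from the member itself.

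Notch receptors are transmembrane proteins that a ligand on a neighbouring cell activates. Activation leads to cleavage of the receptor, and its intracellular part moves to the nucleus, where it acts with the DNA-binding protein RBPJ to switch on target genes such as the Hes and Hey repressors. Notch1 is expressed in many tissues, Notch4 mainly in the endothelium of blood vessels, and Jag2 is a transmembrane ligand known in the limb for its expression in the apical ectodermal ridge, the epithelium at the limb tip, and for its need in the separation of the digits. Accessibility of a promoter is not a measure of how much of its RNA is made. In bulk tissue, fewer cells of a type and less accessible chromatin per cell cannot be told apart.

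The members' start sites in the table, in the build GRCm39 and counted from 1, were chr2:26406676 on the minus strand for Notch1, chr17:34783243 on the plus strand for Notch4 and chr12:112893397 on the minus strand for Jag2. Exons and UTRs within the windows are not described, because no annotation of that build was used. Sequences were available from RefSeq for the older build GRCm38.p6, whose start sites were not matched to those of the table. They may therefore belong to another start of the same gene than the one profiled, and they do not give the positions of the bins. The upstream stretches of both receptors are printed because their composition differs. The short stretches at the start of Notch4 and upstream of the RefSeq start of Jag2 are printed because they hold the motifs named next. Capitals mark GC boxes (GGGCGG, a binding sequence of Sp-family activators, on either strand) and the AP-1 sequence TGACTCA, which Fos and Jun proteins bind. These and the other motifs were chosen with the sequences in view. Sequences are written 5′ to 3′ in the direction of transcription. The upstream stretch of Notch4 stops where its annotated transcript begins, 9 bases before the RefSeq start from which its motifs are counted.
Notch1, chr2:26503823-26504072, minus strand: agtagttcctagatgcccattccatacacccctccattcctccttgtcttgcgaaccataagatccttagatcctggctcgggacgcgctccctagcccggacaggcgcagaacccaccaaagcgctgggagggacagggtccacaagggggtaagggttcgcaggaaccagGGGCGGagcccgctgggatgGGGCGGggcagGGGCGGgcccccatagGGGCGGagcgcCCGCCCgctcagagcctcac
Notch4, chr17:34564045-34564285, plus strand: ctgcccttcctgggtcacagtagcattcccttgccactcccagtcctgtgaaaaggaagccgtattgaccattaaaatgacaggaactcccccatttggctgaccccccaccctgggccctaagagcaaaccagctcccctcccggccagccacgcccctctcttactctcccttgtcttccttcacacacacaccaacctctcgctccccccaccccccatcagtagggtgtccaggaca
Notch4 across its start, chr17:34564279-34564308, plus strand: caggacattgtgTGACTCAggaaacagctc
Jag2, chr12:112929556-112929585, minus strand: cgggctcggaGGGCGGGCGGgcgttggagg

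The RefSeq upstream windows of the 3 genes differed in base composition. G and C made up 87.2% of the 250 bases upstream of the RefSeq start of Jag2, 66.0% for Notch1 and 58.4% for Notch4, beside a median of 52.4% over 32851 RefSeq promoters. CpG dinucleotides numbered 54 for Jag2, 16 for Notch1 and 4 for Notch4, with a median of 6 over all. At Jag2, 317 bases upstream of the RefSeq start are annotated as inside a gene, beside 0 at Notch1. The 250 bases counted for Jag2, and the short stretch printed, are thus transcribed sequence and not only promoter. In the 300 bases from 250 upstream to 50 downstream, Notch1 and Jag2 each held 5 GC boxes and Notch4 held 0, and 35.7% of all windows of that length held at least 1. In Jag2, 2 of the 5 overlap, which gives the run of 10 capitals printed above. The single AP-1 sequence of Notch4 lay across the RefSeq start from which its motifs are counted, and 5.20% of all windows held 1. As an annotated transcript begins 9 bases before that start, the AP-1 sequence lies inside this transcript. The RBPJ core TGGGAA (25.6% of all windows) and the TATA box TATAAA (13.6%) were not found in any of the 3 windows. The core of hypoxia response elements, ACGTG or GCGTG, occurred 1 time in Notch1, 2 times in Notch4 and 2 times in Jag2, and 43.8% of all windows held at least 1. Each motif was searched on both strands, and a match is a description of the letters only.

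Signal here means depth-normalized coverage, given for 20 bp bins that cover 1000 bp on either side of each TSS. The libraries did not have equal signal: the mean over all 235 promoters was 11.8, 18.6 and 12.4 in ALI replicates 1, 2 and 3, and 10.1, 10.3 and 14.7 in 96-well replicates 1, 2 and 3. ALI replicate 2 and 96-well replicate 3 thus stood above the others of their culture. Window, centre, segment and upstream results of the members are also given without both. Over all promoters, the 400 bp centred on the TSS had 5.17, 6.27 and 5.63 times the signal of the outer 200 bp on each side in ALI replicates 1, 2 and 3. This ratio was 4.57, 4.70 and 5.09 in 96-well replicates 1, 2 and 3, so it was higher in every ALI library. Whether it bears on the comparisons below was not tested. The mean coverage over the members' windows was 22.4 to 182.8 reads per base, if the smallest step of signal in a library is the signal of 1 base of a read. Total reads are unknown, so precision is given by the spread between libraries.

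Jag2 had the most accessible promoter of the 3, Notch1 was intermediate and Notch4 lowest, in all 6 libraries. The window signal of Jag2 was 9.58, 15.9 and 9.84 in ALI replicates 1 to 3 and 10.2, 10.5 and 16.0 in the 96-well replicates, a mean of 12.0. It was high in the pair of libraries with high signal overall. Notch1 measured 5.75, 7.11 and 5.59 in ALI and 6.31, 5.55 and 6.75 in 96-well, a mean of 6.18. Notch4 measured 3.26, 4.60 and 3.54 in ALI and 3.50, 4.31 and 5.04 in 96-well, a mean of 4.04. The ranges of the 3 promoters over the 6 libraries did not overlap.

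Within single libraries the signal of the ligand promoter, with no pseudocount, was 1.62- to 2.37-fold that of Notch1 and 2.43- to 3.46-fold that of Notch4. The log2 ratios given here and tested were taken after a pseudocount of 1.06 was added to each signal, which makes them smaller. The log2 ratio of Notch1 to Jag2 was −0.83 ± 0.22 (SD, n = 6) and that of Notch4 to Jag2 was −1.34 ± 0.17 (SD, n = 6), each negative in 6 of 6 libraries. The signal of Notch1, with no pseudocount, was 1.29- to 1.80-fold that of Notch4, and the log2 ratio was 0.51 ± 0.16 (SD, n = 6), positive in 6 of 6 libraries. Each of the 3 pairs gave p = 0.031 in an exact two-sided sign-flip permutation test over libraries, also after Benjamini-Hochberg adjustment over the 3, and 0.031 is the smallest p that 6 libraries allow. The order of the receptors depended on the stretch measured: over the central 400 bp the log2 ratio of Notch1 to Notch4 was −0.0068 (exact sign-flip permutation p = 0.97). The higher window mean of Notch1 thus came from outside the central 400 bp.

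**Figure D1:**
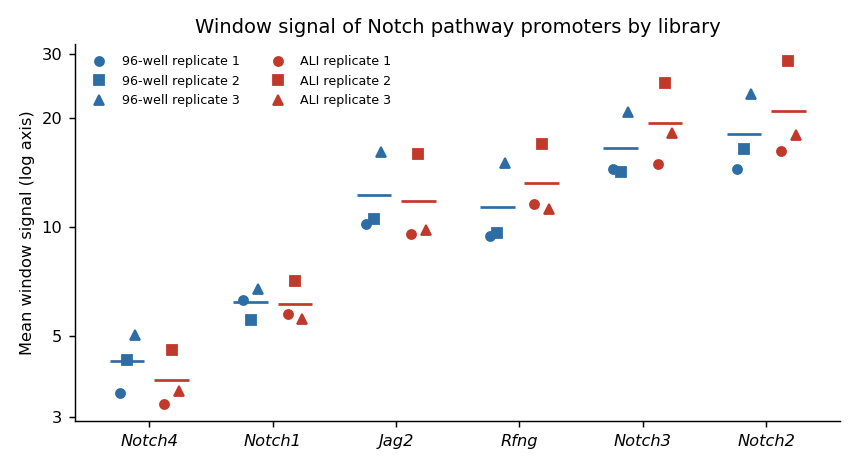
Mean signal over the 2000 bp window (log axis) of the Notch pathway promoters in the table, with 1 marker per library (red ALI, blue 96-well; circle, square and triangle for replicates 1, 2 and 3) and a bar at the mean of 3. Notch4, Notch1 and Jag2 keep this order in every library, and the red squares and blue triangles stand high at most promoters but less so at Notch1.

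Among all 235 promoters ordered by mean signal, Jag2 was 111th, Notch1 153rd and Notch4 170th. Their neighbours in the order were Rfng (12.3) above and Ak3 (12.0) below Jag2, Crcp (6.41) above and Gm38584 (6.09) below Notch1, and Fstl5 (4.07) above and Wnt3a (4.04) below Notch4. None of these gaps exceeded the spread of the member over the 6 libraries, a coefficient of variation (CV) of 10.6% for Notch1, 17.6% for Notch4 and 25.7% for Jag2. The CV of Notch1 was above that of only 3.83% of the 235 promoters, whose median CV was 23.4%, whereas Jag2 varied like most of them. At Notch1 the signal in ALI replicate 2 was 7.11, beside 5.75 and 5.59 in the other ALI libraries, a smaller gap than the all-promoter means of the same libraries show.

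The table holds 6 of the 66 genes of a Notch pathway list: besides the 3 members, the receptors Notch2 and Notch3 and Rfng, a glycosyltransferase that modifies Notch receptors. Their mean signal was above that of the 3 members, clearly so for Notch2 and Notch3 and, for Rfng against Jag2, by less than the spread between libraries. Notch2 had a mean signal of 19.4, with 16.2, 28.6 and 17.9 in ALI and 14.4, 16.4 and 23.2 in 96-well. Notch3 had a mean of 17.9, with 15.0, 24.8 and 18.1 in ALI and 14.5, 14.2 and 20.7 in 96-well. Rfng had a mean of 12.3, with 11.6, 16.9 and 11.2 in ALI and 9.45, 9.63 and 15.0 in 96-well. Of the receptors in the table, Notch4 and Notch1 therefore had the least accessible windows in every library. None of the 21 endothelial, 17 limb mesenchyme or 7 blood markers looked for is in the table, so the share of vessels in these explants could not be checked beside Notch4. Of 28 markers of the ridge and limb ectoderm, 23 are in the table.

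The profiles of the 3 promoters differed in shape. At Notch1 the highest signal lay upstream of the annotated start, at Notch4 just downstream of it, and at Jag2 in a broad block reaching across it. The highest bin of the mean Notch1 profile was centred 470 bp upstream, with a signal of 18.8, or 3.06-fold the signal of the 40 bp over the TSS. In single libraries it lay at −470, −470 and −510 bp in ALI and at −510, −510 and −530 bp in 96-well, so the upstream position was found in all 6. Its width at the level of 50% of the highest bin was 220 bp, narrower than the median of 380 bp over all promoters (interquartile range 280 to 620). A second, lower peak lay 190 bp downstream. Of the 235 promoters, 117 (49.8%) had their highest bin within 100 bp of the TSS and 20 (8.51%) had it more than 400 bp upstream.

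The upstream peak of Notch1, as the mean of the 140 bp around −490 bp, was 13.5, 21.5 and 15.9 in ALI and 16.9, 16.5 and 18.2 in 96-well. Its downstream peak was 7.17, 11.1 and 8.30 in ALI and 7.83, 6.96 and 12.8 in 96-well. Both peaks overlapped between the cultures (exact two-sided permutation p = 0.9 for each, where 0.1 is the smallest that 3 against 3 allow). Between the peaks, the 40 bp over the TSS measured 5.72, 6.41 and 4.98 in ALI and 5.52, 5.88 and 8.37 in 96-well. The GC boxes printed above lie within 100 bases of the RefSeq start, which may not be the start at the centre of this window. The sequence under the upstream peak was not analysed here.

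At Notch4 the highest bin of the mean profile was 110 bp downstream, with a signal of 9.29, and the width at 50% of it was 500 bp. The peak measured 5.12, 11.5 and 6.89 in ALI and 7.63, 9.93 and 11.9 in 96-well, with overlap between the cultures (exact permutation p = 0.4). A second peak 730 bp downstream was 5.88, 6.90 and 5.60 in ALI and 5.40, 4.95 and 5.71 in 96-well (exact permutation p = 0.2). In ALI replicate 1 this second peak was above the first, and the highest bin of that library lay at 710 bp. In the other 5 libraries the highest bin lay between 90 and 170 bp. Pearson r between libraries over the 100 bins was 0.67 to 0.92 for Notch4, beside 0.74 to 0.93 for Notch1 and 0.83 to 0.97 for Jag2.

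At Jag2 the highest bin was 90 bp upstream, with a signal of 22.9, and signal above 50% of it ran from 500 bp upstream to 200 bp downstream, 700 bp in all. The peak measured 17.8, 29.9 and 19.0 in ALI and 17.8, 16.0 and 26.4 in 96-well (exact permutation p = 0.5). Within the block a second rise lay near −290 bp, with a mean of 22.7 in ALI and 18.9 in 96-well. Farther upstream the signal dropped over −1000 to −600 bp, to means of 3.29 (ALI, SD 0.83) and 3.11 (96-well, SD 0.28). Downstream it rose again towards the window's edge, with means at 990 bp of 18.6 (ALI, SD 4.98) and 20.7 (96-well, SD 9.66). In 96-well replicate 3 the bin at 950 bp, with 32.5, was the highest of all, whereas in the other 5 libraries the highest bin was at −70 or −90 bp. The window ends on this rise, so its full height was not measured.

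**Figure D2:**
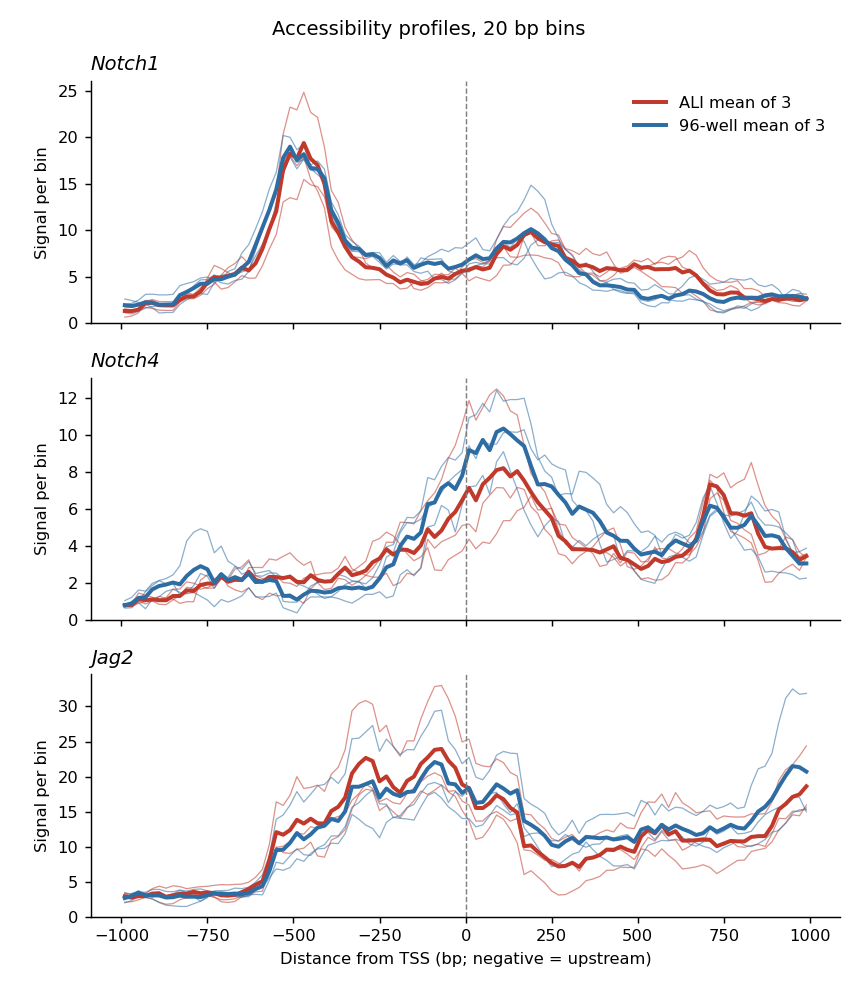
Signal per 20 bp bin against distance from the TSS (dashed line) at Notch1, Notch4 and Jag2. Thin lines are single libraries and thick lines the means of 3 ALI (red) and 3 96-well (blue) libraries. Notch1 peaks 470 bp upstream, Notch4 110 bp downstream, and Jag2 forms a block from −500 to 200 bp with a rise at the right edge.

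The central 400 bp had 1.11-fold the signal of the rest of the window at Notch1, 1.72-fold at Jag2 and 2.09-fold at Notch4, beside a median of 2.52-fold over all promoters (interquartile range 1.30 to 4.42). Notch4 and Jag2 lay inside that range and Notch1 below it. The nearest other start site of the table was that of Tmem141 for Notch1, 894658 bp away, Ager for Notch4, 33594 bp away, and Btbd6 for Jag2, 46706 bp away. No member's window thus overlapped that of another promoter of the table, which says nothing of genes outside the table. In the GRCm38.p6 gene order the next annotated gene upstream is the long non-coding RNA Gm35978 for Notch1, the long non-coding RNA Gm31560 for Notch4 and the protein-coding gene Nudt14 for Jag2. The next protein-coding genes upstream of Notch1 and Notch4 are Egfl7 and Btnl6. Neither long non-coding RNA is among the promoters of the table. In that build Gm35978 lies less than 1000 bp from Notch1 as RefSeq annotates it, whereas Gm31560 and Nudt14 lie farther from their members. The RefSeq start of Notch1 was not matched to the start of the table. Whether Gm35978 lies within the window profiled here is therefore unknown. Whether the upstream peak of Notch1 belongs to Notch1 or to Gm35978 was not tested.

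**Figure D3:**
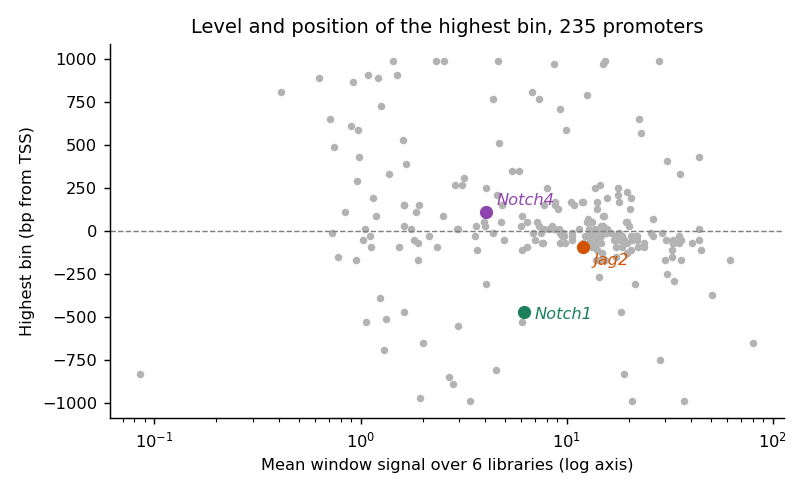
Mean window signal over 6 libraries (log axis) and position of the highest bin of the mean profile, in bp from the TSS, for the 235 promoters (grey) with the 3 members coloured. Notch1 lies among the 20 promoters with the highest bin more than 400 bp upstream, while Notch4 and Jag2 lie near the TSS line at lower and middle signal.

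Likeness of profiles was measured by Pearson r over the 100 bins of the log2 mean profile, as a description, since neighbouring bins share reads. Notch1 resembled the other members least: r was 0.04 between Notch1 and Notch4, 0.31 between Notch1 and Jag2 and 0.57 between Notch4 and Jag2. The profiles most like Notch1 were those of Ptgr3 (0.81), Dazap1 (0.80) and Mtrfr (0.75), where the median over other promoters was 0.25. Those most like Notch4 were Dkk1, a secreted Wnt inhibitor (0.96), Lgr5, a receptor for R-spondins (0.93), and Timeless (0.92), with a median of 0.58. Those most like Jag2 were Wnt5a, a secreted Wnt ligand (0.90), Arhgef40 (0.85) and Kcnq3 (0.84), with a median of 0.52. Notch2 and Notch3 were nearer to Notch4 (0.79 and 0.77) and to Jag2 (0.74 and 0.76) than to Notch1 (0.25 and −0.22). Of the 3 members, Notch1 thus had the lowest likeness to the other Notch receptors of the table.

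The main comparison asked whether these promoters were more or less accessible in ALI than in 96-well culture. On the deposited scale none of the 3 windows differed beyond the spread between libraries. The log2 difference, ALI minus 96-well, was −0.01 ± 0.22 (SE) at Notch1, −0.14 ± 0.18 at Notch4 and −0.06 ± 0.29 at Jag2, with adjusted p of 0.98, 0.87 and 0.96 in limma over the 235 promoters. No promoter of the table passed (0%), 7 had an unadjusted p under 0.05, and the median difference over all was 0.14. The cultures overlapped at each member, and 5.96% of all promoters had cultures that did not overlap. Leaving out 1 library turned the sign at Notch1 and at Jag2, with highest values of 0.042 and 0.13, and moved Notch4 to between −0.25 (without ALI replicate 2) and −0.036 (without 96-well replicate 3), all without a call. Without the 2 libraries of highest signal the members' differences were −0.05, −0.15 and −0.08, with limma adjusted p of 0.81, 0.39 and 0.60, while 33.6% of the promoters passed.

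Since the libraries differ in overall signal, the place of a promoter within its own library was also compared. Jag2 ranked 115th, 114th and 117th of 235 in the ALI libraries and 104th, 102nd and 94th in the 96-well libraries, so it stood lower in the order in every ALI library. Notch4 ranked 175th, 172nd and 174th in ALI and 169th, 163rd and 169th in 96-well, again without overlap. Notch1 ranked 152nd, 156th and 154th in ALI and 143rd, 151st and 157th in 96-well, with overlap. Of all 235 promoters, 19.6% ranked lower in every ALI library than in any 96-well library, so 2 of 3 members with this pattern is a count from a set in which it is frequent.

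After each library was centred on its median promoter, the log2 window signal of Jag2 was 3.51, 3.70 and 3.46 in ALI and 3.73, 3.72 and 3.90 in 96-well. That of Notch4 was 2.21, 2.12 and 2.22 in ALI and 2.42, 2.62 and 2.41 in 96-well. The cultures did not overlap at these 2 promoters, lower in ALI, as at 17.4% of all promoters. Notch1 overlapped, with 2.86, 2.65 and 2.75 in ALI and 3.12, 2.92 and 2.77 in 96-well. The differences were −0.23 ± 0.092 (SE) for Jag2, −0.30 ± 0.13 for Notch4 and −0.18 ± 0.11 for Notch1, with adjusted p of 0.060, 0.080 and 0.21 in limma, where 21.7% of all promoters passed and 10.2% were called lower in ALI. None of the 3 passed after centring. With a variance that also uses the spread of the promoter itself (eBayes without trend, added after seeing the data) the limma adjusted p of Jag2 was 0.19 and 0 of the 235 promoters passed (0%), with 65 at an unadjusted p under 0.05. Without ALI replicate 2, Jag2 passed on the centred scale, at −0.28 with a limma adjusted p of 0.021, as did 53 of the 235 promoters. Without any other single library Jag2 did not pass on that scale, with limma adjusted p of 0.10 to 0.23.

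The call for Jag2 depended on the scaling. It passed after quantile normalization (−0.20 ± 0.048 (SE), limma adjusted p = 0.043) and after cyclic loess (−0.20 ± 0.065, limma adjusted p = 0.027). With those scalings 8.09% and 12.8% of all promoters were called lower in ALI. With the outer flanks of all libraries made equal it did not pass (−0.16, limma adjusted p = 0.21). Notch4 was at −0.17, −0.12 and −0.22 under these 3 scalings and Notch1 at −0.09, −0.01 and −0.11, none of them called. All 3 members had negative differences under each of the 5 scalings, and the size of each stayed below 0.31 on the log2 scale.

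**Figure D4:**
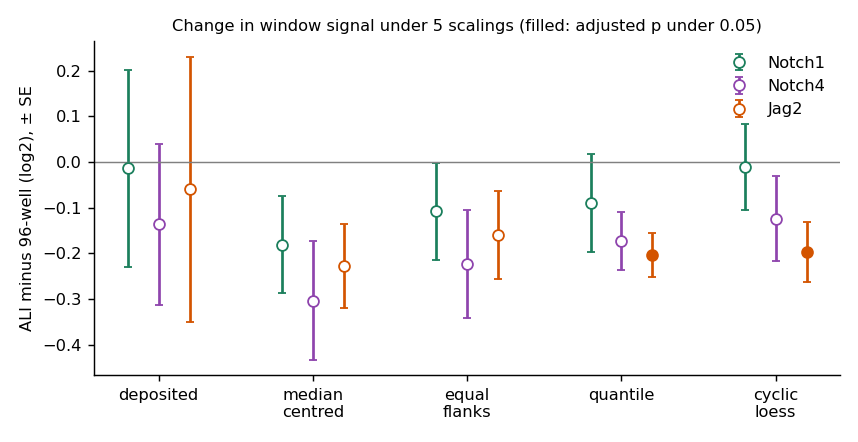
Difference in log2 window signal, ALI minus 96-well, with its standard error, for the 3 members on the deposited scale and under 4 other scalings. Filled points have a limma adjusted p under 0.05 over the 235 promoters. The points lie at or below 0 throughout, and Jag2 is filled under quantile normalization and cyclic loess only.

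The other Notch pathway promoters did not share that sign on the deposited scale. Notch2, Notch3 and Rfng were at 0.19, 0.21 and 0.21, each with a limma adjusted p of 0.87, and at 0.02, 0.04 and 0.04 after centring. Under quantile normalization Notch2 and Notch3 were at −0.11 and −0.06 and Rfng at 0.07. Of the 6 promoters of the list, 0 passed on the deposited scale and 0 after centring, and 1, Jag2, was called lower under quantile normalization and under cyclic loess. The median difference over the 6 was 0.09 on the deposited scale, where that of all promoters was 0.14, and −0.08 after centring, where that of all was −0.03. The ridge and ectoderm list, to which Jag2 itself belongs, had a median of −0.05 over its 23 promoters on the deposited scale and −0.21 after centring. Of the 23, 0 were called lower in ALI on the deposited scale, 6 after centring, 2 under quantile normalization and 8 under cyclic loess, where the shares of all promoters called lower were 0%, 10.2%, 8.09% and 12.8%.

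A difference between the receptors and the ligand in their change with culture was not detected. The log2 ratio of Notch1 to Jag2 averaged −0.80 over the ALI libraries (SD 0.22) and −0.85 over the 96-well libraries (SD 0.26), a difference of 0.05 (exact two-sided permutation p = 0.8). The ratio of Notch4 to Jag2 differed by −0.08 (exact permutation p = 0.7) and that of Notch1 to Notch4 by 0.12 (exact permutation p = 0.4), and all 3 had an adjusted p of 0.8. With 3 libraries against 3 this test cannot give a p below 0.1. In the order ALI replicates 1 to 3 and 96-well replicates 1 to 3, the ratios of Notch1 to Jag2 were −0.64, −1.06, −0.71, −0.61, −0.81 and −1.13. The lowest ratios were those of ALI replicate 2 and 96-well replicate 3, the libraries of high signal, and whether that signal bears on the ratio was not tested.

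Within the window, the mean ratio of the centre to the rest was lower in ALI at Notch1 and Notch4, and neither difference passed the test. The other receptors of the table did not share this, with log2 differences of 0.34 at Notch2 and −0.05 at Notch3 (limma adjusted p of 0.12 and 0.79). Central over remaining signal at Notch1 was 1.06, 0.954 and 0.990 in ALI and 1.04, 1.21 and 1.43 in 96-well. At Notch4 it was 1.41, 2.62 and 1.59 in ALI and 2.00, 2.37 and 2.38 in 96-well. The log2 differences of the members were −0.25 ± 0.14 (SE) at Notch1, −0.27 ± 0.19 at Notch4 and 0.07 ± 0.12 at Jag2, with limma adjusted p of 0.27, 0.35 and 0.72. Of all promoters 0.426% passed this test, and the median difference over all was 0.12. Single libraries moved the members' values by over 1.5 times. Notch4 was at −0.11 without ALI replicate 1 and at −0.51 without ALI replicate 2 (limma adjusted p of 0.71 and 0.14). Notch1 was at −0.14 without 96-well replicate 3 (limma adjusted p = 0.55), and Jag2 ranged from 0.012 without 96-well replicate 2 to 0.15 without 96-well replicate 1. Without the 2 libraries of highest signal the differences were −0.12 at Notch1, −0.46 at Notch4 and 0.05 at Jag2, with limma adjusted p of 0.73, 0.0998 and 0.88.

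In 400 bp segments, none of the 15 segments of the 3 members passed limma over all 1175 segments, of which 0.255% passed. At Notch4 the segment from −600 to −200 bp was higher in every ALI library (2.43, 2.83 and 2.40) than in any 96-well library (1.13, 2.09 and 2.21), with a log2 difference of 0.35 ± 0.19 (SE, limma adjusted p = 0.63). After median centring the cultures overlapped there, and without 96-well replicate 1 the difference was 0.17. The segment from 200 to 600 bp was lower in every ALI library (4.07, 3.79 and 3.91) than in any 96-well library (4.35, 4.93 and 6.35), at −0.32 ± 0.22 (SE, limma adjusted p = 0.69), and the difference was −0.19 without 96-well replicate 3. Cultures did not overlap in 11.6% of all segments. In the segment from 200 to 600 bp, the difference at Notch1 had the opposite sign, with 6.05, 6.97 and 6.75 in ALI and 5.08, 3.85 and 6.06 in 96-well, at 0.35 ± 0.24 (SE, limma adjusted p = 0.69), and the difference was 0.21 without 96-well replicate 2. Without the 2 libraries of highest signal the 2 segments of Notch4 were at 0.40 and −0.17 and that of Notch1 at 0.44, with limma adjusted p of 0.30, 0.65 and 0.14. At the bin 510 bp downstream, picked after the profiles were seen, Notch1 measured 6.63, 5.71 and 5.61 in ALI and 2.23, 2.52 and 3.59 in 96-well. This was the shoulder beyond the downstream peak, and it is given as a description with no test. The share of single bins without overlap between the cultures was not counted, so the gap at this picked bin has no background beside it. At Notch1 the segment from 200 to 600 bp, which holds the bin, overlapped between the cultures on the deposited scale but not after median centring. It did not pass limma on either scale.

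The balance of signal upstream and downstream of the TSS, a measure added after the profiles were seen, had differences of opposite sign at Notch1 and Jag2. At Notch1, 54.1%, 54.8% and 56.7% of the window's signal lay upstream in ALI and 60.7%, 64.3% and 59.4% in 96-well. At Jag2 the share was 48.3%, 49.7% and 51.5% in ALI and 45.0%, 40.3% and 43.5% in 96-well. The cultures did not overlap at either promoter, and this was so at 27.2% of all promoters. The means were 55.2% ± 1.32 against 61.5% ± 2.59 (SD, n = 3 each) at Notch1 and 49.9% ± 1.61 against 43.0% ± 2.40 (SD, n = 3 each) at Jag2, with an exact permutation p of 0.1 for both, the smallest possible. Neither passed limma: the log2 ratio of upstream to downstream signal differed by −0.32 ± 0.095 (SE, adjusted p = 0.082) at Notch1 and by 0.37 ± 0.10 (adjusted p = 0.071) at Jag2, where 4.26% of all promoters passed. At Notch4 the share was 34.0%, 34.8% and 34.2% in ALI and 25.8%, 37.7% and 30.8% in 96-well, so ALI lay within the range of 96-well (limma adjusted p = 0.53). Notch3, outside the members, also had cultures without overlap and the sign of Notch1, at −0.26 (limma adjusted p = 0.17). Notch2 was at −0.14 and Rfng at 0.23, both with overlap (limma adjusted p of 0.45 and 0.24). With the high pseudocount of 5.29, Jag2 passed at 0.28 (limma adjusted p = 0.031) and Notch1 did not, at −0.20 (limma adjusted p = 0.063). How many of all promoters passed with that pseudocount is not given here, so this call of Jag2 has no background beside it. Being a ratio within a library, the share does not depend on the scale of the library. Without the 2 libraries of highest signal the log2 differences were −0.36 at Notch1 and 0.38 at Jag2, with limma adjusted p of 0.087 and 0.095.

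**Figure D5:**
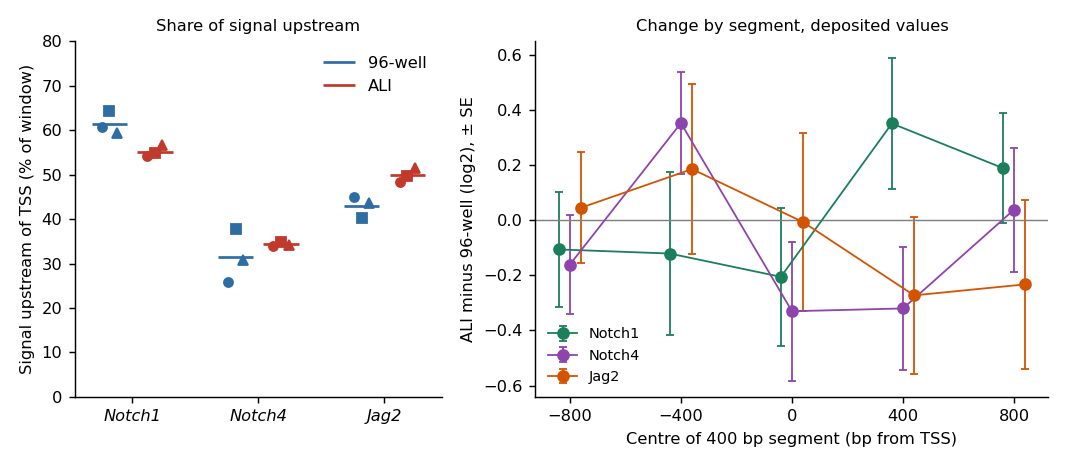
Left, percent of window signal upstream of the TSS by library (red ALI, blue 96-well; circle, square and triangle for replicates 1, 2 and 3) with bars at the means of 3. Right, log2 difference, ALI minus 96-well, with its standard error in 5 segments of 400 bp on the deposited scale (points are shifted sideways for clarity). The means for 96-well and ALI are 61.5% and 55.2% at Notch1 and 43.0% and 49.9% at Jag2, without overlap, and none of the 15 segments passes the test.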

How the data were processed

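ATAC-seq signal was analysed in 6 libraries from explants of mouse limbs, 3 per culture. The deposited table holds signal, depth-normalized coverage computed by deepTools in 20 bp bins, per the file headers; the formula of the normalization is not stated. Per the submitters' processing notes the build was GRCm39 and the tools were Bowtie2 2.5.1, deepTools 3.5.1, Picard, SAMtools 1.16.1 and Trim Galore 0.6.10, with no roles given. How the transposase offset, duplicates and fragment lengths were handled, and what selected the 235 genes, are not given in the sources used here; an uncorrected offset would shift profiles by less than 1 bin.

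From these values, bins were averaged per window, segment or peak. Differences between cultures were tested on log2(signal + 1.06), the pseudocount being 0.1 of the median promoter signal, so differences of low windows are understated. limma 3.58.1 in R 4.3.3 (lmFit, eBayes with trend) was fitted over all 235 promoters or 1175 segments, with Benjamini-Hochberg adjustment and a threshold of 0.05. In the window and segment fits of all 6 libraries on the deposited and centred scales, limma took each variance from the trend alone. A promoter's own spread did not enter its SE there, nor in the window fits without 1 library. It did enter in the centre and upstream fits. Ratios between members and peak heights were compared by exact permutation. Peaks were maxima of the mean profile, smoothed over 3 bins, with a prominence of at least 20% of the highest bin. The signal of 1 read per base was 0.0871 to 0.146, from steps of low values that came out whole to within 0.1 of a step. No count test was run.

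The members and lists were chosen with earlier results of these data known. Promoters named besides the members were, by rule, the 3 most alike in profile to each, the neighbours in level, and the Notch pathway genes of the table. Sequences are RefSeq's, from GRCm38.p6, where all 3 members matched by symbol, and no coordinates were converted. The upstream window of Jag2 there lies inside annotated transcribed sequence, so only a short stretch is printed. Alternatives were other pseudocounts, a filter on low values, other scalings, other extents of the centre, a replicate block and leaving out libraries.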

Additional observations from a re-analysis of the deposited data

How the results depend on the processing

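The number of promoters whose window passed limma rested on scaling. It was 0 on the deposited scale, 51 after median centring, 38 with quantile normalization, 61 with cyclic loess and 73 with equal flanks; with centring and no trend, so that a promoter's own spread enters, it was 0. Leaving out 1 library gave 0 on the deposited scale and, after centring, 50, 53 and 40 without ALI replicates 1, 2 and 3 and 22, 25 and 58 without 96-well replicates 1, 2 and 3. Leaving out the 2 libraries of highest signal, chosen after seeing the data, gave 79, or 78 with centring. For centre against rest, 1 promoter passed; the count was 5 with the low pseudocount, 0 with the high one, 9 with the filter on low values, 0 without the trend, 3 against the outer 200 bp, 12 without the 2 libraries, and 0 to 30 without 1 library, with 30 reached without ALI replicate 1. For segments, 3 passed, against 53 with centring, 1 without the trend, 146 without the 2 libraries and 1 to 4 without 1 library. For upstream against downstream, 10 passed, against 0 with the low pseudocount, 17 without the 2 libraries and 0 to 4 without 1 library.

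Replicate numbers did not pair the libraries: the correlation of deviations of same-numbered libraries was 0.67, −0.61 and −0.60. With the replicate block the counts were 0 for windows (39 with centring) and 1 for upstream against downstream.

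Among the members, the deposited window difference without 1 library ran from −0.11 to 0.042 at Notch1, from −0.25 to −0.036 at Notch4 and from −0.28 to 0.13 at Jag2; Notch1 and Jag2 turned positive without ALI replicate 1, ALI replicate 3 or 96-well replicate 3, and none was called. The difference between cultures in the ratio of Notch1 to Jag2 was −0.20 over the central 400 bp and −0.094 to 0.17 without 1 library, and that of Notch4 to Jag2 was −0.17 to 0.027 without 1 library. Within libraries the ratio of Notch1 to Notch4 was −0.0068 over the central 400 bp. Without 1 library the ratios were −0.87 to −0.77 for Notch1 to Jag2, −1.38 to −1.29 for Notch4 to Jag2 and 0.47 to 0.55 for Notch1 to Notch4, each with an exact p of 0.0625, the smallest that 5 libraries allow. Of 321 alternatives over all results, 248 kept direction and call or size. The cause of the changes was not tested.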
